A study of Fragaria x ananassa with 21 samples.

Results

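This account follows the 5 unigenes of strawberry receptacle that stand for the desaturases, the isomerases and the cyclase of carotene synthesis: phytoene desaturase (PDS, comp110404_c0_seq12), zeta-carotene isomerase (Z-ISO, comp106288_c0_seq1), zeta-carotene desaturase (ZDS, comp117631_c0_seq4), comp117652_c0_seq33, which was listed as carotenoid isomerase (CRTISO), and lycopene β-cyclase (LCYB, comp105524_c0_seq4). They were chosen by name among 109953 unigenes, that is, assembled transcripts, and were followed together with all 12 unigenes of their 5 assembly components. A component is a group of assembled sequences that share stretches and may be alleles, gene copies or splice forms of 1 locus. Fruits of the octaploid cultivar Toyonoka (Fragaria x ananassa), grown in a greenhouse and 2 weeks past anthesis at the start, were injected with 100 μL of distilled water (CK), of abscisic acid (ABA) at 1 μM or of NDGA (nordihydroguaiaretic acid), which blocks ABA synthesis, at 100 μM. Receptacles freed of achenes were sampled on day 0 (CK0), day 5 (CK5, ABA5 and NDGA5) and day 8 (CK8, ABA8 and NDGA8). RNA of several fruits was pooled into 1 library a condition, so no value has a replicate, and a difference between libraries cannot be told apart from a difference between batches of fruit. The ABA5 and CK8 fruits had both reached the initial red stage.

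Carotenoids are made in plastids from phytoene, a colourless carotene. In plants, PDS and ZDS each insert double bonds, Z-ISO turns the product of PDS into the form that ZDS accepts, and CRTISO turns the bent product of ZDS into straight, red lycopene. LCYB then closes a ring at both ends of lycopene to give β-carotene, the root of the branch that ends in ABA, whereas lycopene ε-cyclase (LCYE) opens the branch to lutein, the main carotenoid of green tissue.

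The libraries held 53653395 (NDGA8) to 89152239 (ABA8) counted reads. Levels are in RPKM (reads per kilobase of unigene, scaled to the same number of counted reads in each library), and each is accompanied where needed by an exact 95% interval that covers counting error only, not differences between fruits. A unigene passed the size rule when the ratio of RPKM + 0.1 between 2 libraries was at least 1.5 in either direction and at least 1 of the libraries reached 1 RPKM. Ratios printed below are of RPKM + 0.1, and the bounds in parentheses are the counting interval of the ratio of reads. The median unigene was 0.28 lower on the log2 scale in ABA8 than in CK8 and 0.11 higher in NDGA8 than in CK8. Directions of ratios that turn when each library is rescaled to a common median are named as such. Orders of libraries were read before rescaling, whose log2 factors ran from -0.25 (ABA8) to 0.18 (CK0). Counting intervals do not cover these factors, so neighbours in an order can change places after rescaling. In bulk tissue, fewer cells of a type and less RNA per cell cannot be told apart. The unigenes carry no annotation of achene or green plastid genes in the tables used here, so the tissue label was not checked by markers.

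The annotation went against the name of 1 of the 5. The protein match of comp117652_c0_seq33 in Swiss-Prot was the Arabidopsis β-carotene isomerase D27, an enzyme that acts on β-carotene at the entry to strigolactone synthesis, and not CRTISO. Of the 13 unigenes listed as CRTISO, 5 matched D27, 3 matched prolycopene isomerase, which is CRTISO, and 5 had such a match only in the nr protein database, each with under 1 RPKM in every library. The 3 that matched CRTISO all lie in component comp104685, and the longest of them, comp104685_c0_seq16 (2482 nt), is described below beside the 5. The matches of PDS, Z-ISO, ZDS and LCYB were to enzymes of the same name.

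The 5 unigenes differed in level and in how much they varied. In RPKM, a scale that takes length into account, ZDS was the highest of the 5 in CK0, CK5, ABA5 and NDGA5, and PDS in CK8, ABA8 and NDGA8. LCYB followed and then Z-ISO, except in ABA8, where the order was PDS, Z-ISO, ZDS and LCYB. The unigene comp117652_c0_seq33 was the lowest in all 7 libraries. Between the lowest and the highest library, log2(RPKM + 0.1) spanned 0.44 in Z-ISO, 0.51 in comp117652_c0_seq33, 0.77 in LCYB, 0.82 in PDS and 1.57 in ZDS. Over the 20484 unigenes whose mean reached 5 RPKM, the median span was 0.95. A smaller span than that of Z-ISO was found in 8.09% of these unigenes, than that of LCYB in 35.9%, than that of PDS in 40.0% and than that of ZDS in 77.0%.

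**Figure D1:**
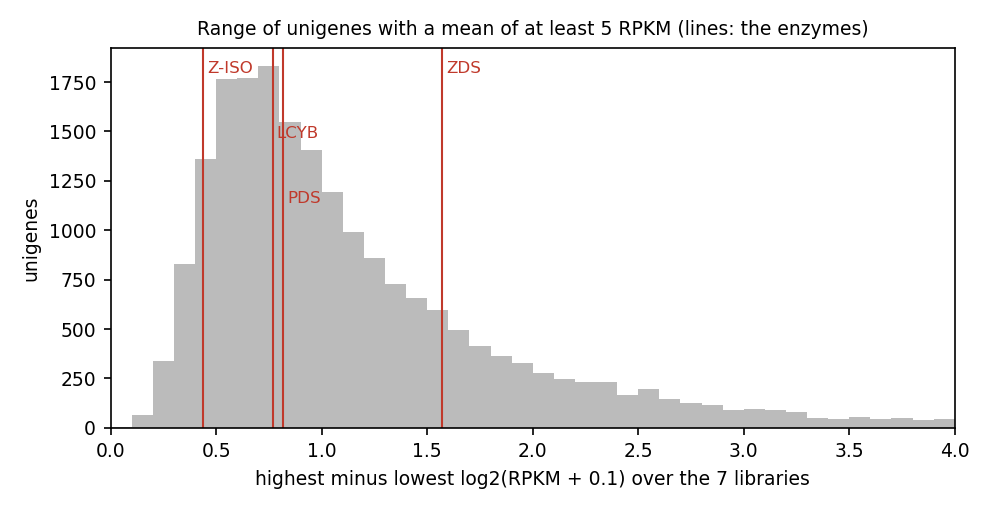
Histogram of the span between the lowest and the highest of the 7 libraries, in units of log2(RPKM + 0.1), for the 20484 unigenes with a mean of at least 5 RPKM; red lines mark Z-ISO, LCYB, PDS and ZDS, and the axis ends at 4, past which lie 516 unigenes. Z-ISO (0.44), LCYB (0.77) and PDS (0.82) lie below the median span of 0.95, and ZDS (1.57) lies above it.

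**Figure D2:**
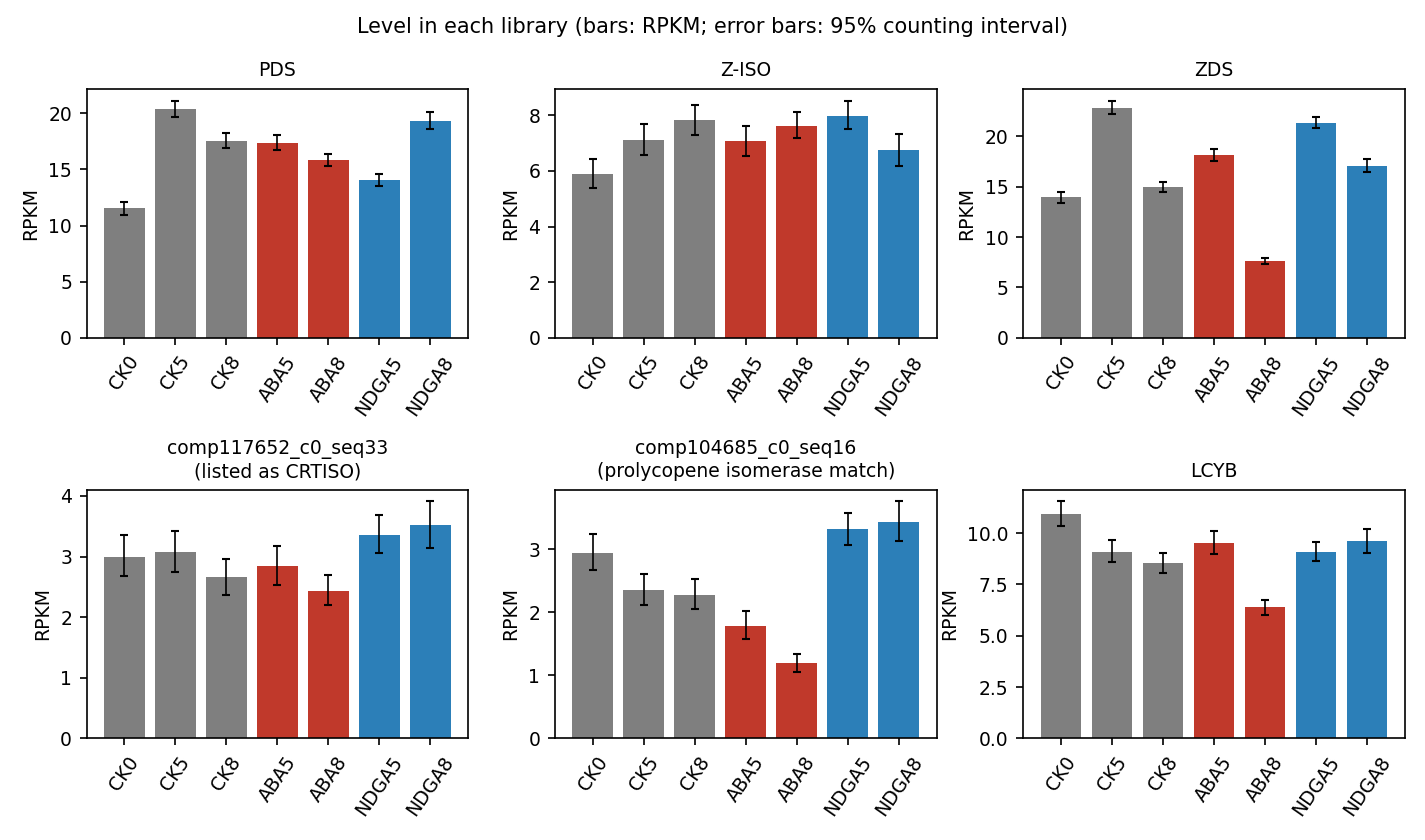
Level in RPKM (vertical axes from 0, each panel on its own scale) of PDS, Z-ISO, ZDS, comp117652_c0_seq33, comp104685_c0_seq16 and LCYB in the 7 libraries; grey bars are water, red bars ABA and blue bars NDGA, and error bars are 95% counting intervals. ZDS fell to 7.61 RPKM in ABA8 against 13.9 to 22.8 in the other 6 libraries, while Z-ISO stayed between 5.88 and 7.99.

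PDS, which carries out the first desaturation, was measured at 11.5 RPKM in CK0, with water 20.4 on day 5 and 17.6 on day 8, with ABA 17.4 and 15.8, and with NDGA 14.0 and 19.3. CK0 was the lowest library and CK5 the highest, and the day 5 library with NDGA was the lowest after CK0. In the order of levels before rescaling, CK5 and NDGA8 did not differ beyond counting error (ratio interval 1.00 to 1.11), and neither did CK8 and ABA5 (0.958 to 1.07). PDS rose from CK0 to CK5, with a ratio of 1.76 (1.66 to 1.88), and was still 1.52 times (1.43 to 1.62) the CK0 level in CK8. In CK5 against CK0, 2 of the 5 unigenes passed the size rule, both higher, where 47.1% of 50956 unigenes passed it in either direction and 17.1% were higher. In CK8 against CK0, PDS alone of the 5 passed, where 50.4% of unigenes did and 20.2% were higher. No treated library passed the rule for PDS against water on the same day. The NDGA5 level was closest to it, at a ratio of 0.690 (0.653 to 0.725) to CK5.

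The second main PDS unigene of the component, comp110404_c0_seq10 (1136 nt against 2448 nt), followed the same order of libraries, from 8.20 RPKM in CK0 to 16.6 in CK5, with 9.98 in NDGA5. It fell in NDGA5 against CK5, with a ratio of 0.603, past the rule that comp110404_c0_seq12 did not reach there. The share of the component's reads on comp110404_c0_seq12 was 72.3% to 74.5% across the libraries, so the balance between them hardly moved. The third unigene, comp110404_c1_seq1 (546 nt), had 1.30 RPKM in CK0 and under 1 in all 6 others, with the lowest value, 0.108, in CK8. It fell from CK0 to CK5 and to CK8, and it held at most 1.86% of the component's reads. Reads shared by unigenes of 1 component were divided in the authors' counting in a way not given in the sources used here, so levels of these unigenes are uncertain with respect to each other.

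A primer pair for qRT-PCR was listed in the study under comp110404_c0_seq12 and is shown because it belongs to a second assay of PDS. Whether it also reads comp110404_c0_seq10 was not tested. The primers, 5′ to 3′, are as follows.
PDS forward: tccctgatagaacagcacctt
PDS reverse: aagaatggatttcacgcagt
The forward primer has 21 bases and the reverse primer 20. The qRT-PCR values measured with them were not analysed here.

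Z-ISO, the isomerase between both desaturases, was measured at 5.88 RPKM in CK0, with water 7.11 on day 5 and 7.82 on day 8, with ABA 7.06 and 7.63, and with NDGA 7.99 and 6.74. In none of the 12 comparisons did it pass the size rule. CK0 was the lowest library, below NDGA8 by more than counting error (interval of the ratio of NDGA8 to CK0, 1.01 to 1.30), and no other neighbours in the order of levels differed beyond counting error. ABA5 and CK5 gave a ratio of 0.993 (0.890 to 1.11), and ABA8 and CK8 a ratio of 0.976 (0.888 to 1.07). Both ratios become higher than 1 after rescaling. The ratio of NDGA5 to CK5 was 1.12 (1.02 to 1.24) and that of NDGA8 to CK8 was 0.864 (0.772 to 0.963). The shorter unigene of the component, comp106288_c0_seq3 (840 nt), ranged from 3.54 in CK0 to 5.64 in NDGA8 and also passed the rule in none of the 12 comparisons. The share of component reads on comp106288_c0_seq1 was 68.1% to 76.0%.

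A further unigene listed as Z-ISO, comp105943_c2_seq2, had levels of the same size but not the same pattern: 7.25 RPKM in CK0, with water 5.18 on day 5 and 8.71 on day 8, with ABA 5.67 and 5.35, and with NDGA 8.00 and 5.61. Its Swiss-Prot match was the maize zeta-carotene isomerase, but its match in the nr database was a glutathione transferase of Fragaria vesca. It passed the rule in 5 of 12 comparisons, 2 higher and 3 lower. Against water on the same day it rose in NDGA5 (ratio 1.53, 1.39 to 1.72) and fell in NDGA8 (ratio 0.648, 0.577 to 0.719), both also after rescaling. It fell in ABA8 too (ratio 0.618, 0.558 to 0.675), but not after rescaling.

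ZDS, which carries out the later desaturation, varied most of the 5. It was measured at 13.9 RPKM in CK0, with water 22.8 on day 5 and 15.0 on day 8, with ABA 18.1 and 7.61, and with NDGA 21.3 and 17.1. CK5 and NDGA5 were the highest libraries and ABA8 stood apart as the lowest. Each neighbouring pair in the order of levels before rescaling differed beyond counting error. ZDS is the only unigene of its component, with 2165 reads in ABA8 and 5369 in NDGA5, the fewest and the most. On each treatment the day 8 library was below the day 5 library, by a ratio of 0.657 (0.626 to 0.686) with water, 0.424 (0.399 to 0.444) with ABA and 0.801 (0.765 to 0.837) with NDGA.

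In ABA8, ZDS fell against CK8 with a ratio of 0.512 (0.482 to 0.537), and it was the only one of the 5 unigenes to pass the size rule in that comparison, where 54.9% of 50764 unigenes did and 36.1% were lower. After rescaling, the log2 ratio was -0.72 in place of -0.97, and the unigene still passed. The share of the calls over all unigenes that were higher was 34.1% in ABA8 against CK8 and 49.7% after rescaling. ZDS in ABA8, alone of the 5, was also lower than in NDGA8, with a ratio of 0.449 (0.421 to 0.471), where 54.6% of unigenes passed the rule in either direction and 39.4% were lower. It alone was lower than in ABA5 too, where 39.1% passed and 26.7% were lower. In ABA5 against CK5 the ratio was 0.793 (0.758 to 0.828), and none of the 5 unigenes passed, where 28% of 47461 unigenes did. ZDS rose from CK0 to CK5, with a ratio of 1.63 (1.56 to 1.72). It then fell, alone of the 5, from CK5 to CK8, a comparison in which 41.1% of unigenes passed and 18.8% were lower, but after rescaling it did not pass. The CK8 level was 1.07 times (1.02 to 1.13) that of CK0.

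**Figure D3:**
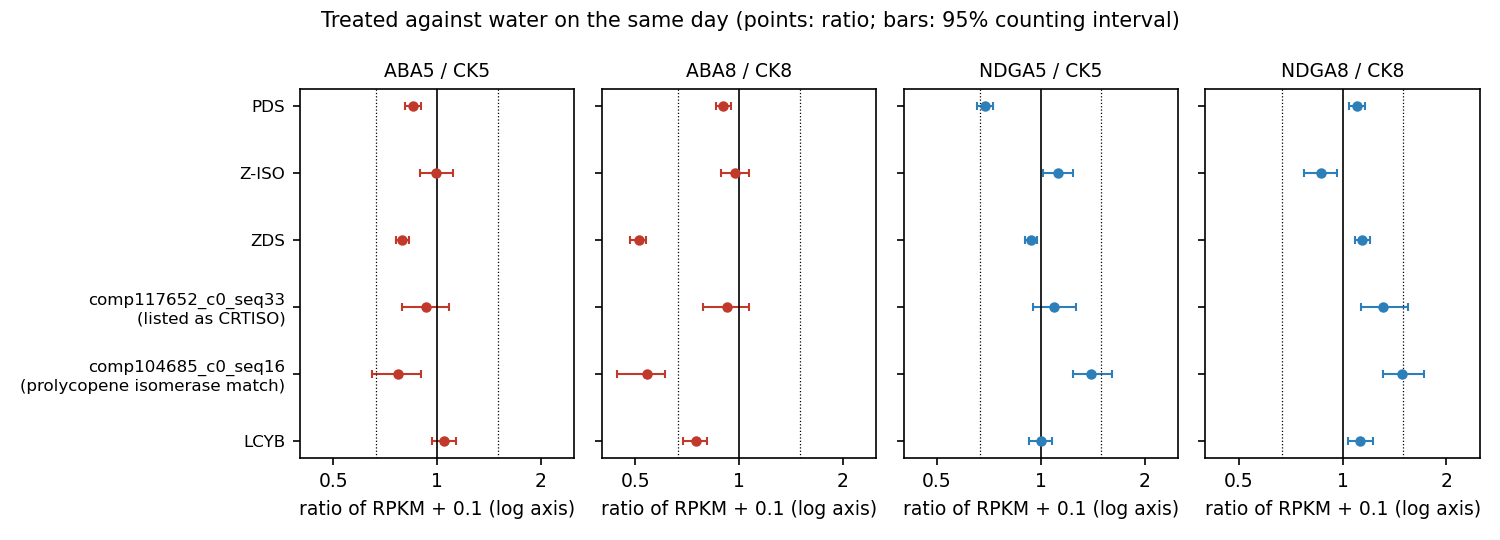
Ratio of RPKM + 0.1 of a treated library to the water library of the same day, on a log axis, for 6 unigenes; points are ratios, bars are 95% counting intervals, the solid line marks a ratio of 1 and the dotted lines mark 1.5-fold in each direction. ZDS (0.512) and comp104685_c0_seq16 (0.541) lie past the lower dotted line in ABA8 over CK8, and Z-ISO lies within the dotted lines in all panels.

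In the NDGA libraries none of the 5 unigenes passed the size rule against water on the same day, where the share over all unigenes was 26.6% of 47946 unigenes in NDGA5 over CK5 and 36% of 51302 in NDGA8 over CK8. For ZDS the ratio was 0.935 (0.899 to 0.973) on day 5 and 1.14 (1.09 to 1.20) on day 8. On the log2 scale the day 8 ratio was 0.19, and 0.03 after rescaling. Between treatments on day 5, ABA5 against NDGA5, none of the 5 passed where 38% of unigenes did, and from NDGA5 to NDGA8 none passed where 28.4% did. Between the libraries of the initial red stage, ABA5 against CK8, none of the 5 passed where 43.3% did. There PDS had a ratio of 0.990 (0.938 to 1.04), Z-ISO of 0.904 (0.812 to 1.00), ZDS of 1.21 (1.15 to 1.27) and LCYB of 1.11 (1.03 to 1.21). The direction of the PDS ratio turns after rescaling.

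The unigene listed as CRTISO, comp117652_c0_seq33, was the flattest after Z-ISO. It was measured at 3.00 RPKM in CK0, with water 3.07 on day 5 and 2.66 on day 8, with ABA 2.84 and 2.44, and with NDGA 3.36 and 3.51. Both NDGA libraries were the highest and ABA8 the lowest, but no neighbours in the order differed beyond counting error, and no comparison passed the rule. The most distant pair on day 8, ABA8 against NDGA8, had a ratio of 0.702 (0.597 to 0.805). After rescaling, its log2 ratio was -0.11 in place of -0.51, and ABA8 was no longer below CK8. Of the other 4 unigenes of its component, comp117652_c0_seq12 (1820 nt) and comp117652_c0_seq43 (1847 nt) showed the same order of libraries. The shares of component reads were 26.2% to 27.8% for comp117652_c0_seq33, 24.8% to 26.5% for comp117652_c0_seq12 and 25.3% to 26.4% for comp117652_c0_seq43. The remaining unigenes of the component each passed the rule in 2 of 12 comparisons. The unigene comp117652_c0_seq28 fell in ABA8, to 0.923 RPKM against 1.90 in CK8 and 1.71 in NDGA8, the latter not after rescaling. The unigene comp117652_c0_seq30 was higher than in CK8 (2.09 RPKM) in NDGA8 (3.45) and in ABA5 (3.78). After rescaling it no longer passed in NDGA8 and passed, also higher, in ABA8 (2.75).

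The unigene that matched CRTISO, comp104685_c0_seq16, moved more. It was measured at 2.94 RPKM in CK0, with water 2.35 on day 5 and 2.28 on day 8, with ABA 1.79 and 1.19, and with NDGA 3.32 and 3.43. Both ABA libraries were the lowest and both NDGA libraries the highest, with the 3 water libraries between them. The counting intervals of the levels overlapped between CK0 (2.67 to 3.24) and NDGA5 (3.07 to 3.58). Those of ABA5 (1.58 to 2.02) and CK8 (2.06 to 2.52) did not. It fell in ABA8 against CK8 with a ratio of 0.541 (0.444 to 0.611), and also after rescaling. In ABA5 against CK5 the ratio was 0.772 (0.649 to 0.895), in NDGA5 against CK5 1.40 (1.24 to 1.61) and in NDGA8 against CK8 1.48 (1.31 to 1.73), none of which passed the rule. The span over the 7 libraries was 1.45 on the log2 scale, next to the 0.51 of comp117652_c0_seq33. The unigene comp104685_c0_seq7 (2330 nt) had nearly the same values, from 1.19 in ABA8 to 3.41 in NDGA8, while comp104685_c0_seq4 (1161 nt) was highest in CK8, at 3.25.

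The component as a whole did not pass the rule in ABA8 against CK8. With the reads of all 7 unigenes of comp104685 summed over their summed length, the level was 3.22 RPKM in CK0, with water 3.04 on day 5 and 2.86 on day 8, with ABA 3.13 and 2.22, and with NDGA 3.75 and 4.22, and the ratio of ABA8 to CK8 was 0.784. Of the 4 unigenes that were not listed, picked out here after their values were seen, comp104685_c0_seq13 (358 nt) held 34.6% to 49.6% of the component's reads, at 23.8 RPKM in CK8 and 25.6 in ABA8. The unigene comp104685_c0_seq17 (1009 nt) had 1.78 RPKM in ABA5 and 1.15 in ABA8 against 0.219 to 0.742 in the other 5 libraries, and comp104685_c0_seq11 (356 nt) had 1.20 and 1.64 against 0.0356 to 0.146. The remaining one, comp104685_c0_seq5 (614 nt), had 2.54 RPKM in ABA5 and 0.913 in ABA8. Thus the listed unigenes of this component were lowest with ABA while comp104685_c0_seq17 and comp104685_c0_seq11 were highest there. The unigenes comp104685_c0_seq13 (36.5 RPKM) and comp104685_c0_seq5 (2.73) showed neither pattern and were highest in NDGA8. Whether reads moved between transcripts or between the assembly's versions of them was not tested.

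LCYB, which closes the rings of β-carotene, was measured at 10.9 RPKM in CK0, with water 9.11 on day 5 and 8.55 on day 8, with ABA 9.53 and 6.39, and with NDGA 9.10 and 9.62. Before rescaling, CK0 was the highest library and ABA8 the lowest, each apart from its neighbour beyond counting error. The neighbours among the 5 between them did not differ beyond counting error. LCYB passed the rule in none of the 12 comparisons. The ratio of ABA8 to CK8 was 0.750 (0.689 to 0.810), or -0.17 on the log2 scale after rescaling in place of -0.42. The ratio of ABA8 to NDGA8 was 0.668 (0.611 to 0.722), just short of the rule. This difference shrinks after rescaling, which moves the median unigene of that comparison from -0.38 to 0.07 on the log2 scale. LCYB is the only unigene of its component and the only one listed for this enzyme.

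Ratios within a library, which rescaling does not touch, showed the same contrast between the steps. The ratio of ZDS to PDS was 1.21 in CK0, with water 1.12 on day 5 and 0.852 on day 8, with ABA 1.04 and 0.481, and with NDGA 1.52 and 0.883. It was below 1 in the 3 libraries of day 8 and above 1 in the other 4. The ratio of LCYB to ZDS was lowest in CK5 (0.399) and highest in ABA8 (0.839). Phytoene synthase (PSY), which makes phytoene, was represented by its best expressed unigene, comp110189_c0_seq5, and its ratio to PDS was 1.78 in CK0, with water 2.41 on day 5 and 3.27 on day 8, with ABA 4.50 and 2.96, and with NDGA 1.72 and 1.45. On both days the ratio was lower with NDGA than with water, and the highest value was in ABA5.

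**Figure D4:**
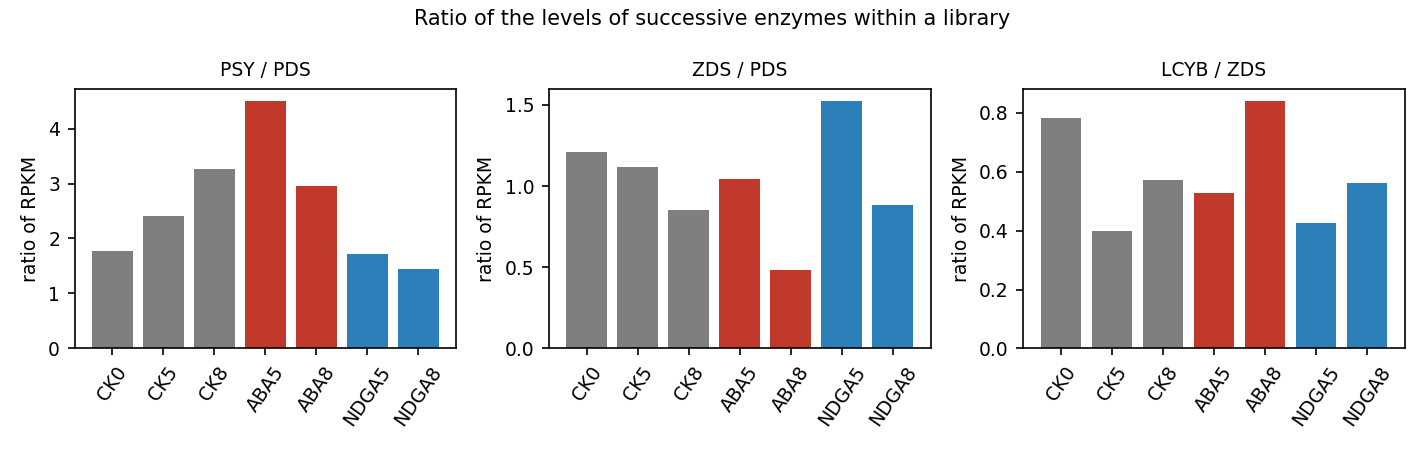
Ratio of RPKM between enzymes of the pathway within each of the 7 libraries (grey water, red ABA, blue NDGA; vertical axes from 0): PSY over PDS, ZDS over PDS and LCYB over ZDS, each from 1 unigene an enzyme. Z-ISO acts between PDS and ZDS, and CRTISO between ZDS and LCYB. ZDS over PDS was lowest in ABA8 (0.481) and PSY over PDS was highest in ABA5 (4.50).

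The enzyme headings of the 5 unigenes held 28 unigenes in the study's list, made up of 10 for PDS, 3 for Z-ISO, 1 for ZDS, 13 for CRTISO and 1 for LCYB. The study drew this list from these same libraries. Of them 13 reached 1 RPKM in at least 1 library of each comparison between a treatment and water on the same day. In ABA5 against CK5 none of the 13 passed the rule, where 28% of all unigenes did. In ABA8 against CK8, 5 of 13 were lower and 0 higher, a share close to the 36.1% of all unigenes that were lower there. The 5 were ZDS, comp105943_c2_seq2 and the 3 listed unigenes of comp104685. Their median log2 ratio was -0.27, next to -0.28 over all unigenes, and rescaling left 3 of the 13 lower, without comp105943_c2_seq2 and comp104685_c0_seq7. In NDGA5 against CK5, 1 was higher (comp105943_c2_seq2) and 1 lower (comp110404_c0_seq10), where 14.8% of all unigenes were higher and 11.8% lower. In NDGA8 against CK8, 1 was higher (comp104685_c0_seq7, not after rescaling) and 1 lower (comp105943_c2_seq2), where 20.7% of all unigenes were higher and 15.3% lower. Among the 10 listed as PDS, 8 had a match to phytoene dehydrogenase in the nr database only, and none of these exceeded 1.06 RPKM in any library.

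The neighbouring steps moved in other ways. The list upstream, of PSY and geranylgeranyl diphosphate synthase (GGPS, which makes the precursor of phytoene), had 8 measured unigenes in 3 components. Against CK5, 5 of the 8 rose in ABA5, where 15.1% of all unigenes were higher, and 7 fell in NDGA5, where 11.8% were lower. Against CK8, 7 fell in NDGA8, where 15.3% were lower, and 1 fell in ABA8, where 36.1% were lower. The unigenes of a component are not independent of each other. PSY (comp110189_c0_seq5) was measured at 20.5 RPKM in CK0, with water 49.0 on day 5 and 57.4 on day 8, with ABA 78.1 and 46.8, and with NDGA 24.1 and 28.1. The best expressed GGPS unigene, comp111696_c0_seq3, was the 1 that fell in ABA8, to 3.25 RPKM against 7.71 in CK8. LCYE, the cyclase of the lutein branch, was low, and its unigene comp105236_c0_seq1 had 2.08 RPKM in CK0, with water 0.698 on day 5 and 1.37 on day 8, with ABA 0.614 and 0.304, and with NDGA 1.29 and 1.21. It fell in ABA8 against CK8 with a ratio of 0.275 (0.162 to 0.300) and rose in NDGA5 against CK5 with a ratio of 1.74 (1.44 to 2.40), and these 2 calls remained after rescaling. The best expressed unigene of zeaxanthin epoxidase, which acts downstream of LCYB, was comp108626_c0_seq2, with 7.75 (NDGA5) to 13.4 RPKM (ABA5). It fell in NDGA5 against CK5. The carotene ε-monooxygenase of the lutein branch (comp102493_c1_seq2) ranged from 0.682 RPKM in ABA8 to 1.48 in CK0. The best expressed unigene of violaxanthin de-epoxidase, comp100864_c0_seq2, was listed at 0 in ABA8 and reached 1.44 in NDGA8.

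An effect common to both days was estimated by limma on log2(RPKM + 0.1) over the 6 libraries of day 5 and day 8, with treatment and day as additive terms and 2 residual degrees of freedom. These hold the differences of a treatment between the days, so the SE and p do not measure the spread between fruits. With Benjamini-Hochberg adjustment over 43759 unigenes, 0.548% of them (240) were called for ABA and 0% (0) for NDGA. An unadjusted p under 0.05 by limma was reached by 6417 unigenes (14.7%) for ABA and by 1652 (3.78%) for NDGA. None of the 5 was called. The estimate for ZDS with ABA was -0.65 on the log2 scale (SE 0.27), with an unadjusted p of 0.0431 and an adjusted p of 0.326, and ZDS was lower than water in 2 of 2 ABA libraries. For the other 4 unigenes with ABA, the estimates lay between -0.19 and -0.02 and the adjusted p was at least 0.745. With NDGA, the estimates of the 5 lay between -0.20 and 0.26, with an adjusted p of 1.00 by limma. The 240 calls for ABA became 0 after rescaling and 0 without ABA8.

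The unigenes of other components with the pattern most like each of the 5 were found by Pearson's r of log2(RPKM + 0.1) over the 7 libraries, among 20484 unigenes. The closest was comp97924_c0_seq3 for PDS (r = 0.990), comp105601_c0_seq2 for Z-ISO (0.959), comp114597_c0_seq1 for ZDS (0.996), comp97839_c0_seq2 for comp117652_c0_seq33 (0.992) and comp109171_c0_seq7 for LCYB (0.996). The next were comp107194_c1_seq2 (0.982), comp112263_c1_seq5 (0.957), comp118216_c0_seq5 (0.992), comp94782_c1_seq1 (0.991) and comp109171_c0_seq4 (0.994) in the same order. None of these 10 carries an annotation in the tables used here. An r of at least 0.95 was reached by 194 unigenes for LCYB, 62 for ZDS, 42 for comp117652_c0_seq33, 13 for PDS and 4 for Z-ISO. The points are 7 libraries whose depth all unigenes share. Among themselves, comp117652_c0_seq33 and comp104685_c0_seq16 had an r of 0.894, ZDS and LCYB 0.682, PDS and ZDS 0.279, and Z-ISO and LCYB -0.653.

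The degradome libraries, in which reads begin at the cut ends of transcripts, gave a further readout. The deposited table held 5207 alignments of small RNAs, which lay on 3917 transcripts, where the assembly has 109953 unigenes. Of these alignments, 0 lay on a component of the 5 unigenes. Degradome reads were listed for 859 of the 5207. On other unigenes listed as CRTISO there were 2 alignments, both without degradome reads in the 7 libraries. The one on a unigene of comp104685, comp104685_c0_seq7 (transcript positions 294 to 313, alignment score 4), is shown because that unigene was among those lower in ABA8. Its small RNA, PC-5p-66144_32, has 21 bases, with the seed (bases 2 to 8) in capitals.
PC-5p-66144_32: tTTATGTTgcttggatttgct
This small RNA had an estimated count of 2.5 in CK0, 3 in CK5, 1.5 in CK8, ABA5 and ABA8, 4.5 in NDGA5 and 4 in NDGA8, a depth at which no difference could be detected.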

How the data were processed

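Transcriptome reads were filtered by the authors with the NGS QC toolkit, assembled with Trinity and TGICL and deposited as RPKM per unigene. Tool versions and the counting program were not given in the sources used here. RPKM times length gave whole reads in 100% of values (within 0.02 reads or a relative 2e-05), and 24030 blank cells (3.12%) were read as 0. For small RNA, the authors deposited estimated counts, in which reads mapping to several places are split. The deposited degradome table holds the count of reads at each predicted site. Authors' p-value and FDR columns were not used. Conditions were taken from the sample labels. The design text gives ABA8 as day 5 and NDGA5 as water, whereas the labels give day 8 and NDGA.

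Calls followed a size rule (RPKM + 0.1, 1.5-fold, at least 1 RPKM), with no test, in 12 comparisons. Exact 95% intervals (Clopper-Pearson for ratios, Poisson for levels) cover counting error only. limma 3.58.1 (R 4.3.3) fitted treatment and day with a trended prior to unigenes with a mean of at least 1 RPKM. Named were the 5 unigenes, their components, the listed unigenes of the same and the LCYE branch enzymes, the best expressed unigene of GGPS, PSY, zeaxanthin epoxidase and violaxanthin de-epoxidase, and 2 unigenes most like each of the 5. The members and lists were chosen with earlier results of these data known. Alternatives were pseudocounts of 0.01 and 1 RPKM, no filter, 5 RPKM, 2-fold, rescaling by the median ratio, component sums, a chi-square test on reads, and leaving out libraries. The scripts were tested on simulated data. Python 3.11.15, numpy 2.4.6, pandas 2.3.3, scipy 1.17.1 and matplotlib 3.10.9 were used.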

Additional observations from a re-analysis of the deposited data

Results flagged for a closer look

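For 3 of the 5 unigenes, the day 5 and the day 8 ratio of NDGA to water lay on opposite sides of 1, each with a counting interval that leaves out 1. With 1 library a condition the difference between days was not tested, and 6 values meet this description. For PDS, the log2 ratio was -0.54 on day 5 and 0.14 on day 8, and the latter turns to -0.02 after rescaling. For ZDS, it was -0.10 on day 5 and 0.19 on day 8, and the latter becomes 0.03 after rescaling. For Z-ISO, it ran the other way, 0.17 on day 5 and -0.21 on day 8. None of these 6 ratios reached 1.5-fold.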

How the results depend on the processing

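No paired analysis was possible because each condition had 1 library and the labels carry no replicate numbers. Over the 60 ratios of the 5 unigenes, 5 lost their call at 2-fold, 2 with a pseudocount of 1 RPKM and 1 after rescaling. With a pseudocount of 0.01 RPKM 1 gained a call, LCYB in ABA8 against NDGA8. There 2 of the 5 then passed, and 27776 of 49856 unigenes did. Without a filter, with a filter of 5 RPKM and by component sums, all 60 kept their call or lack of it. At 2-fold, 0 of the 5 passed in ABA8 against CK8, CK5 against CK0, CK8 against CK5 and CK8 against CK0. Over all unigenes, 18040 of 50764, 13848 of 50956, 12397 of 50494 and 16092 of 52881 passed there, in that order. With a pseudocount of 1 RPKM, 0 of the 5 passed in CK8 against CK5 and 0 in CK8 against CK0, where 15391 and 20611 of all unigenes did. After rescaling, 0 of the 5 passed in CK8 against CK5, where 20604 of all unigenes did. A chi-square test on reads compares libraries and not conditions. It called 57.8% to 82% of the unigenes that reached 1 RPKM in a comparison, and this share stands in parentheses below. Of the 5 it called 2 in ABA5 against CK5 (57.8%), 3 in ABA8 against CK8 (82%), 3 in NDGA5 against CK5 (59.5%) and 5 in NDGA8 against CK8 (66.3%). Between treatments it called 4 in ABA5 against NDGA5 (68.7%) and 5 in ABA8 against NDGA8 (79.8%). With water it called 4 in CK5 against CK0 (73.7%), 2 in CK8 against CK5 (71.6%) and 4 in CK8 against CK0 (75.5%). The others were 3 in ABA8 against ABA5 (71.4%), 3 in NDGA8 against NDGA5 (61.1%) and 2 in ABA5 against CK8 (72.2%).

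Of the 28 unigenes of the same enzymes, the calls in ABA5 against CK5 (0), ABA8 against CK8 (5), NDGA5 against CK5 (2) and NDGA8 against CK8 (2) became, in that order, 5, 9, 7 and 14 without a filter. There 48963, 62971, 49455 and 55820 of all 109953 unigenes were called. By the chi-square test they became 5, 8, 9 and 11 of the 13 that reached 1 RPKM. The test called 57.8%, 82%, 59.5% and 66.3% of all unigenes that did so. By component sums they became 1, 2, 0 and 0 components. Of 67232 components, with the filter of 1 RPKM kept, 5268, 12461, 5009 and 7781 were called, in the same order. At 2-fold ABA8 against CK8 gave 1 and both NDGA comparisons 0. With a pseudocount of 1 RPKM these 3 gave 3, 1 and 0. With a filter of 5 RPKM, ABA8 gave 2 and NDGA8 gave 1. After rescaling, ABA8 gave 3 and NDGA8 gave 1, where 27846 and 17105 of all unigenes were called. Over all unigenes, calls in these 4 comparisons were 13304, 27849, 12760 and 18461. At 2-fold they were 6270, 18040, 6248 and 10132. With a filter of 5 RPKM they were 3959, 9203, 2779 and 4566, and with a pseudocount of 1 RPKM 8380, 22208, 7864 and 12815. Rescaling moved the share of calls that were higher from 57.5% to 42.3% in NDGA8 against CK8, from 36.2% to 47.6% in CK5 against CK0, from 40.2% to 52.3% in CK8 against CK0, from 31.7% to 53.7% in ABA8 against ABA5, from 60.1% to 46.0% in NDGA8 against NDGA5 and from 27.9% to 55.8% in ABA8 against NDGA8.

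By limma, the 240 unigenes called for ABA became 411 with a pseudocount of 1 RPKM, 132 with a mean of at least 5 RPKM, 0 without a filter and 0 after rescaling. Leaving out a library at a time, with 1 residual degree of freedom and the lone library assumed to vary like the others, gave 0 (without ABA8) to 2199 (without CK5) for ABA and 0 to 130 (without CK5) for NDGA. None of the 5 unigenes was called by limma under any of these. The causes were not tested.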
